A study of Mus musculus with 6 samples.

Results

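The genes described here are the mouse drug- and toxin-metabolising enzymes whose symbols begin with Cyp2, Cyp3, Cyp4, Ugt1, Ugt2, Gsta, Gstm, Gstp, Gstt or Sult1. They were selected on name and on detection: a gene was kept if, in at least 1 genotype, a probe named through its RefSeq accession passed the scanner software's well-above-background flag in all 3 animals. Of 125 such genes with a named probe, 84 met this rule, out of 23462 named genes on the array. Colon RNA of 3 control and 3 Islr knockout mice, all male, had been hybridised to 1 single-colour array per animal. Both groups had drunk 3.5% dextran sulfate sodium (DSS), which injures the colonic epithelium, for 5 days with 1 day of recovery, according to the sample source, although the treatment field of the labels states no treatment. The groups therefore shared the DSS course, and no animal without it is among the samples. The labels give neither the Islr allele, the strain nor the age, and the design text speaks of flow separation into TRIzol without naming a sorted population, so the samples are treated as colon tissue. Nothing in the labels says more of the replicates than that they are separate samples.

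Animals clear lipophilic foreign compounds in steps. Cytochrome P450 enzymes (CYP) oxidise them, with electrons passed on by the reductase Por. UDP-glucuronosyltransferases (UGT), glutathione S-transferases (GST) and sulfotransferases (SULT) then attach a polar group, and ABC transporters pump the products out of the cell. The liver carries most of this capacity, but the lining of the gut is the first tissue that meets swallowed compounds, and differentiated enterocytes and colonocytes express many of the same families. Several members also handle endogenous substrates such as arachidonic acid, steroids and thyroid hormone. Nuclear receptors (Nr1i2, also called PXR, and Nr1i3, called CAR), the aryl hydrocarbon receptor and Nfe2l2 induce many of these genes, and HNF4 and HNF1 factors drive them in liver and gut epithelium.

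Promoters are shown here because several Cyp2c neighbours described below shared a pattern over the arrays. RefSeq promoter windows (GRCm38.p6, 250 bases before to 50 after the start) matched 69 of the 84 members. The HNF4 word CAAAGTCCA, searched on both strands, lay in the windows of 8 members. They follow with 10 bases on each side, 5′ to 3′ along the gene, the word in capitals:
Cyp2c65 (chr19:39060880-39060908, plus strand): gatgttggaaCAAAGTCCActgggaggag
Cyp2c67 (chr19:39649149-39649177, minus strand): atcattgagaCAAAGTCCAtttggaagca
Cyp2c68 (chr19:39741160-39741188, minus strand): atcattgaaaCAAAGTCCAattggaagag
Cyp2c40 (chr19:39812841-39812869, minus strand): atcattgagaCAAAGTCCAtttggaagag
Cyp2c69 (chr19:39886826-39886854, minus strand): atcattgagaCAAAGTCCAtttggaagag
Cyp2c70 (chr19:40187332-40187360, minus strand): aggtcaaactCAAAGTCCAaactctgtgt
Cyp3a11 (chr5:145879945-145879973, minus strand): aagagagtacCAAAGTCCAgtgatgcaaa
Sult1b1 (chr5:87536179-87536207, minus strand): gtgagcaggcCAAAGTCCAttcctggtgg
The word stood in the same orientation in all 8. The flanks of Cyp2c67, Cyp2c68, Cyp2c40 and Cyp2c69 are nearly the same letters, as these neighbours are close paralogues and so are not independent cases. The word lay in 0.475% of all 32851 promoter windows. Among members at least 1 log2 unit higher in knockouts 7 of 29 had it (24.1%), and among the other tested members 1 of 34 (2.94%), Cyp2c70. A member was counted if any of its windows held the word, whereas the share over all is per window. The member shares here and below are therefore not measured like the share over all windows. The HNF1 word GTTAAT was found in 8 of 29 (27.6%) and 3 of 34 (8.82%) against 7.10% of all windows, and the TATA word TATAAA in 15 of 29 (51.7%) and 11 of 34 (32.4%) against 13.6%. The other words searched were the antioxidant response core TGACNNNGC (3 of 29, 4 of 34, 12.4% of all), the xenobiotic response core GCGTG (5 of 29, 7 of 34, 32.4% of all) and the CDX word TTTATG (2 of 29, 6 of 34, 11.9% of all). On the reverse strand the TATA word shares the letters TTTAT with the CDX word. The 29 members were grouped by their measured difference, so these shares are descriptions only.

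The 250 bases before the start of Cyp2c68, the member of the cluster with the largest difference among those detected on all 6 arrays, and of Cyp2d10, which passed the test, are given with every searched word in capitals:
Cyp2c68 (chr19:39741102-39741351, minus strand): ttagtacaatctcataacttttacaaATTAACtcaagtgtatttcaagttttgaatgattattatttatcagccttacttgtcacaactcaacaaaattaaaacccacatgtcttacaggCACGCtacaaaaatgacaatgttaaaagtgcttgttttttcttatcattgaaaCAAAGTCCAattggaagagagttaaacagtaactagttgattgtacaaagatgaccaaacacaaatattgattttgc
Cyp2d10 (chr15:82407195-82407444, minus strand): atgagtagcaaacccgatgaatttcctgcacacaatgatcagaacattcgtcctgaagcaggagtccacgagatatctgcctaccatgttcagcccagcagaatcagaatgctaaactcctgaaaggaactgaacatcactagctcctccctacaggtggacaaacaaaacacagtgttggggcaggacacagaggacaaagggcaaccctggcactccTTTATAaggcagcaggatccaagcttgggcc
The Cyp2c68 sequence holds ATTAAC, the HNF1 word on the reverse strand, from base -224, CACGC, the xenobiotic core on the reverse strand, from base -130 and the HNF4 word from base -77. That of Cyp2d10 holds TTTATA, the reverse TATA word, from base -31.

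Levels below are the log2 processed signal minus the array's 75th percentile over all non-control spots, so 0 is that percentile, and they can be compared between arrays for a probe but not between probes. A difference is the knockout mean less the control mean in log2 units, with the standard error (SE) and adjusted p of limma over 35351 tested probes. Islr itself served as the check of the labels. Its probe stood at 1.24 and 1.21 in control replicates 2 and 3, and at -1.40, -0.93 and -1.31 in knockout replicates 1 to 3; control replicate 1 was an outlier spot there, at 1.57. The difference was -2.44 (SE 0.21, limma adjusted p 0.0171), but the labels do not say which part of the gene was deleted. The scanner's name for each array carries a digit, read here as the slide row, that was 1 for all controls and 2 for all knockouts. If that reading holds, row and genotype cannot be told apart. Outlier spots, as marked by the scanner software, were not used. Their share per array ran from 3.26% to 16.0%, with the highest shares in knockout replicate 1 and control replicate 1.

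Of the 84 members, 77 could be tested, and 65 of these had a higher mean in knockouts and 12 a lower one. The median difference was 0.84, against 0.01 over all 16451 tested genes. A difference of at least 1 was reached by 35 of 77 members (45.5%) against 7.87% of all tested genes, and one of at least 2 by 25 (32.5%) against 2.53%; no member was lower by 1 or more. Few single members passed the test. At an adjusted p under 0.05 in limma 2 were called higher, Cyp2d10 and Cyp4f40, where 1.35% of all tested genes were called higher, and 0 were called lower, where 2.46% of all genes were. At an unadjusted p under 0.05, 35 members were higher and 2 lower, against 13.7% and 14.5% of all tested genes. Among the 61 members usable on all 6 arrays every knockout lay above every control for 28 and below every control for 2; over the 13659 genes usable in this way the shares were 18.0% and 19.4%. Over all probes 1403 were called (3.97%). Since 11 members were detected on all arrays of 1 genotype only, the 66 tested members detected on all 6 arrays were also taken alone, and their median was 0.80. Of these 66, 28 were higher by 1 or more (42.4%), against 6.88% of all genes under that filter. For the other 11 the difference rests partly on signals not well above background: Cyp2c40, Cyp2c53-ps, Cyp2c65, Cyp2c66, Cyp2f2, Cyp2j11, Cyp2t4 and Gsta2 in controls, and Cyp2b13, Cyp2c70 and Sult1e1 in knockouts.

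**Figure D1:**
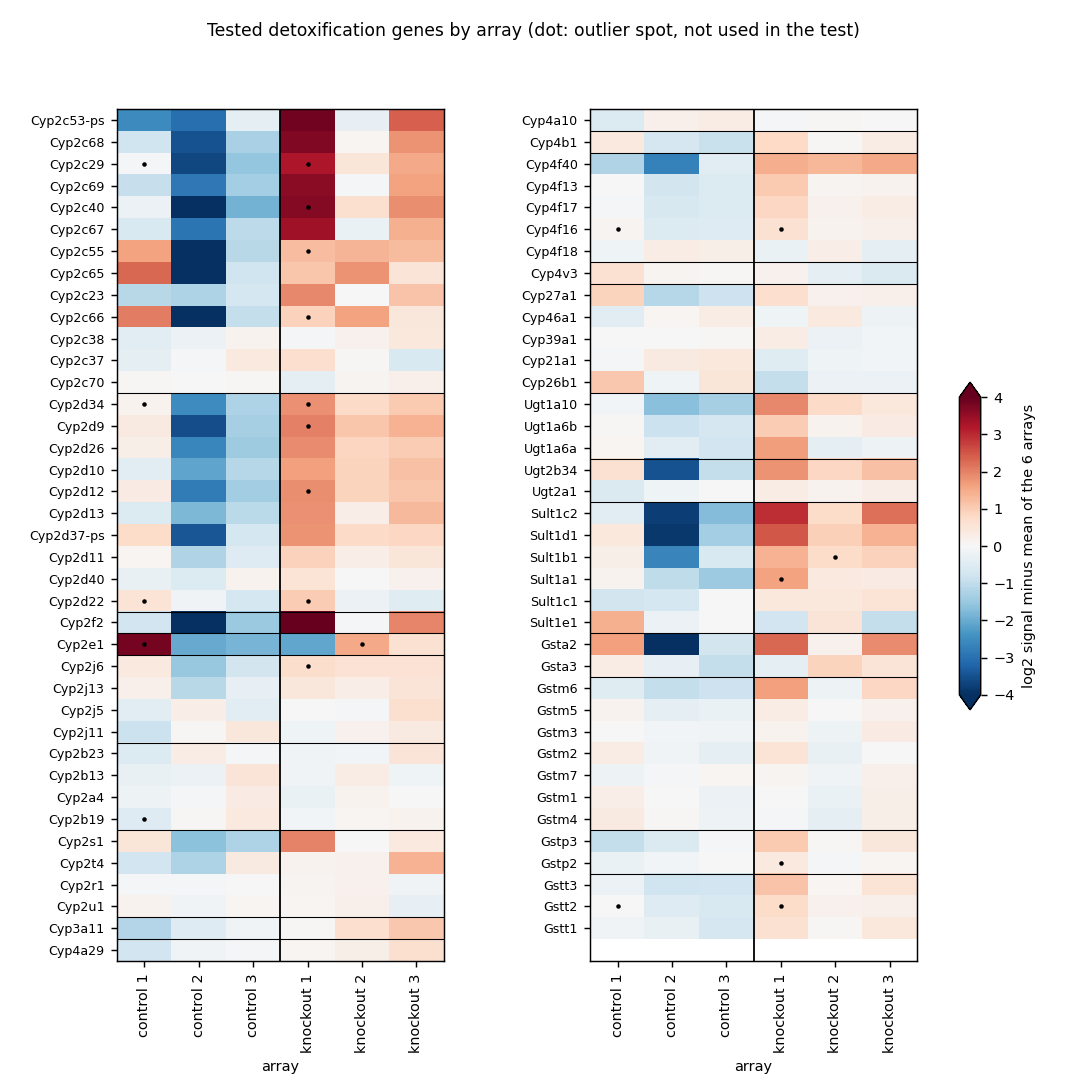
Heat map of the 77 tested members (rows, grouped by family and sorted by difference) on the 6 arrays (columns); colour is the log2 signal minus the mean of the 6 arrays for that gene, with colours saturating at 4 and -4, and dots mark outlier spots left out of the test. Most Cyp2c, Cyp2d and Sult1 rows are blue in control replicate 2 and red in knockout replicate 1, while most Cyp2b and Gstm rows are pale throughout.

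The pattern from array to array was uneven. Averaged over the 61 members usable everywhere, the level was -2.12, -3.12 and -2.41 in control replicates 1, 2 and 3 and -1.08, -1.80 and -1.47 in the knockouts. These means did not overlap, but control replicate 1 and knockout replicate 2 lay closer to each other than the highest and lowest arrays of either group. Control replicate 2 was the lowest of the 6 arrays for 29 of the 61 members (47.5%), against 22.0% of all such genes. Knockout replicate 1 was the highest for 32 (52.5%), against 29.1%. Of the 24 members with a difference of at least 1, control replicate 2 was lowest for 22 and knockout replicate 1 highest for 20. Without control replicate 2 the median over members was 0.72 and 27 of 71 were higher by 1 or more; without knockout replicate 1 the values were 0.78 and 33 of 77.

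Epithelial markers ranked the arrays in the same way. All 13 tested of 17 listed pan-epithelial markers were higher in knockouts, with a median of 1.33 and 0 called in limma. All 17 were well above background on every array. Their summed linear level, in multiples of the 75th percentile, was 80.9, 26.1 and 61.2 in controls and 132.8, 98.6 and 102.7 in knockouts, again lowest in control replicate 2 and highest in knockout replicate 1. All 16 tested surface colonocyte markers were higher too (median 1.36). Distal colon Hox genes, which mark position along the gut, were higher for 6 of 8 (median 0.20, 0 called). They summed to 6.61, 5.68 and 6.46 in the control arrays against 17.1, 8.01 and 11.7 in the knockout arrays. By these sums control replicate 2 was lowest and knockout replicate 1 highest. By mean log2 over the 6 usable on all arrays, knockout replicate 1 was again highest (-0.77). Control replicate 1 was then lowest, at -2.22 against -2.04 and -1.91 in control replicates 2 and 3. Smooth muscle markers were higher for 8 of 8 (median 0.36) and endothelial markers lower for 8 of 8 (median -1.04), none of them called. Of 9 tested neutrophil markers 7 were called lower and the other 2 were higher, with a median of -2.86. Their summed levels, in which bright markers weigh most, were 32.0 to 35.4 in controls and 26.8 to 28.9 in knockouts. All 13 tested fibroblast markers were lower (median -0.41, 1 called). Liver markers, relevant because the liver is rich in these enzymes, were higher for 5 and lower for 7 of 12 (median -0.52, 1 called lower). The liver markers had summed levels of 8.06 to 10.045 in controls and 4.94 to 13.9 in knockouts. Small intestine markers were higher for 7 of 8 (median 0.73), with summed levels of 6.20 to 11.4 in controls and 8.11 to 11.8 in knockouts. The part of these cell types, and of the position sampled, in the differences of the detoxification genes was not tested; in bulk RNA fewer cells of a type and less RNA per cell cannot be told apart.

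As a second scale, each array was centred on the mean of the 7 pan-epithelial markers usable on all arrays, which was 0.31, -2.02 and -0.35 in controls and 1.20, 0.70 and 1.02 in knockouts. This scale shifts every gene down: the median of all tested genes became -1.67. That of the members became -0.82, and 25 of 77 (32.5%) remained above 0, against 3.73% of all tested genes. The 25 were 10 Cyp2c genes, 7 Cyp2d genes, Cyp2f2, Cyp4f40, Gsta2, Sult1b1, Sult1c2, Sult1d1, Ugt1a10 and Ugt2b34. Of these, Cyp2c40, Cyp2c53-ps, Cyp2c65, Cyp2c66, Cyp2f2 and Gsta2 met the detection rule in knockouts only. Their place above 0 therefore rests partly on that rule, which was the same for all tested genes. On this scale 4 members were called higher, Cyp2f2 (2.76, limma adjusted p 0.0120), Cyp2c53-ps (2.31, 0.0333), Sult1c2 (2.30, 0.0339) and Cyp2c68 (2.05, 0.0490). The SE was 0.81 for each of these 4, as for every tested member usable on all 6 arrays. Calls on this scale therefore follow the size of the difference and do not reflect each gene's own spread. For Cyp2f2 the SE on the 75th percentile scale was 1.37 (limma adjusted p 0.103). The control signal was well above background on 2 of 3 arrays for Cyp2f2 and 1 of 3 for Cyp2c53-ps, so the sizes of these differences rest partly on background. Cyp2d10 stood at 0.80 and Cyp4f40 at 1.23, and neither was called (adjusted p 0.348 and 0.159). Differences from here on are on the 75th percentile scale unless the epithelial scale is named, and every member given as higher that is not among the 25 turns negative on the epithelial one.

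**Figure D2:**
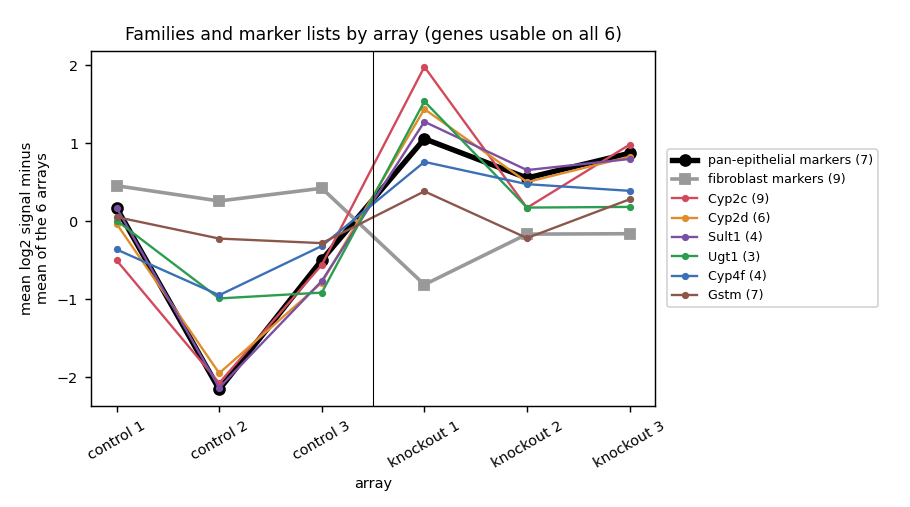
Mean log2 signal of 6 enzyme families, 7 pan-epithelial and 9 fibroblast markers on each array, minus the mean of the 6 arrays, over genes usable on all 6 (number in brackets). The Cyp2d and Sult1 lines follow the pan-epithelial line, the Cyp2c line lies above it in knockout replicate 1, the Gstm line stays near 0 and the fibroblast line runs the other way.

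The Cyp2d enzymes, monooxygenases of many basic drugs and of fatty acids, lie side by side on chromosome 15, and all 10 with a probe were members. All 10 were higher in knockouts, by 0.06 to 2.77 with 2.29 as the median; 1 was called and 7 had an unadjusted p under 0.05. Cyp2d10 stood at 0.58, -1.09 and -0.13 in controls and at 2.65, 1.90 and 2.19 in knockouts. Every knockout lay above every control, and the means were -0.21 ± 0.84 and 2.25 ± 0.38 (SD, n = 3 each). The difference was 2.46 (SE 0.43, limma adjusted p 0.0401), a 5.49-fold higher signal. The call was lost when any array but control replicate 1 was left out (adjusted p 0.0504 to 0.103), with differences from 2.02 to 2.63 in those 5 fits.

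Other Cyp2d genes had differences of the same order without a call. Cyp2d34 was usable on 4 arrays, at -3.26 and -1.99 in controls and -0.00 and 0.29 in knockouts, a difference of 2.77 (SE 0.47, adjusted p 0.0529). Cyp2d13, annotated as a transcribed pseudogene, stood at -3.76, -5.01 and -4.29 against -1.39, -2.96 and -1.91, a difference of 2.27 (SE 0.47, adjusted p 0.0523). Neither overlapped between the groups. Cyp2d9, Cyp2d26, Cyp2d12 and the pseudogene Cyp2d37-ps were higher by 2.74, 2.52, 2.30 and 2.27, all with wide SE (0.70 to 1.08). Control replicate 2 lay far below its group for each of these 4. A dimmer Cyp2d26 probe differed by 1.38 (SE 0.86, limma adjusted p 0.347), with overlapping groups. Cyp2d11 differed by 1.11 (SE 0.35, adjusted p 0.106). Cyp2d22, at the start of the gene order, and Cyp2d40 differed least, by 0.06 and 0.46. On the epithelial scale Cyp2d11, Cyp2d22 and Cyp2d40 were below 0. Their coding sequences are alike, so a probe may capture more than 1 of these transcripts.

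**Figure D3:**
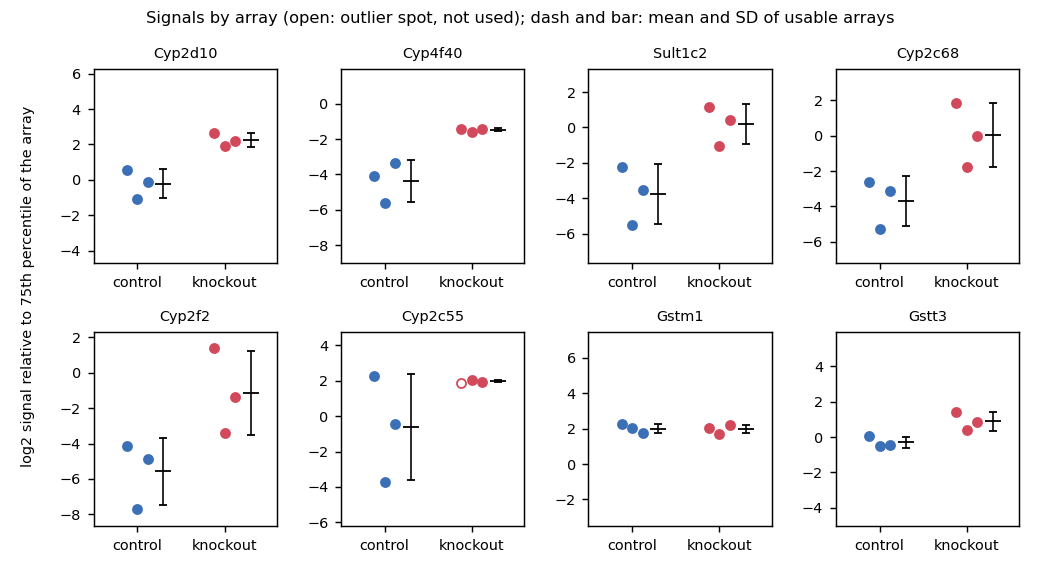
Log2 signals of 8 members on each array (points; open points are outlier spots left out), with the mean and SD of the usable arrays beside each group; every panel spans the same number of log2 units. Knockouts lie above controls for Cyp2d10, Cyp4f40, Sult1c2, Cyp2c68, Cyp2f2 and Gstt3, while Cyp2c55 and Gstm1 overlap.

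The Cyp2c enzymes oxidise drugs and turn arachidonic acid into epoxides and other products. All but Cyp2c23 of the 13 tested lie in a row on chromosome 19. Their median difference was 2.61; 12 of 13 were higher, 7 had an unadjusted p under 0.05 and 0 were called in limma. The row fell into blocks that differed in how the arrays ranked. Cyp2c55, Cyp2c65 and Cyp2c66, at its start, were high in control replicate 1. Cyp2c55, a colon-expressed enzyme that makes hydroxylated fatty acids, stood at 2.29, -3.73 and -0.43 in controls and at 2.04 and 1.93 in knockout replicates 2 and 3, with an outlier spot at 1.90 in replicate 1. The knockouts were nearly equal and lay within the range of the controls, and the difference of 2.61 had an SE of 1.64 (adjusted p 0.361). It was 4.06 without control replicate 1 and 1.06 without control replicate 2. A dimmer Cyp2c55 probe differed by 2.36 (adjusted p 0.275). Cyp2c65 showed the same order, at -0.36, -7.56 and -3.44 against -1.54, -0.84 and -2.12, a difference of 2.28 (SE 1.65, adjusted p 0.412). Cyp2c66 differed by 2.02 (SE 1.70, adjusted p 0.490).

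Further along, Cyp2c53-ps, Cyp2c29, Cyp2c67, Cyp2c68, Cyp2c40 and Cyp2c69 were highest in knockout replicate 1 instead, for Cyp2c29 and Cyp2c40 only by outlier spots that the test did not use. Cyp2c68 stood at -2.63, -5.30 and -3.13 in controls and at 1.87, -1.76 and -0.04 in knockouts. Knockout replicate 1 exceeded replicate 2 by more than 3 log2 units, and the lowest knockout still lay above the highest control. The difference was 3.71 (SE 1.04, adjusted p 0.0861). Cyp2c69 was at -2.82, -4.74 and -3.25 against 1.72, -1.96 and -0.30 (3.43, SE 0.95, adjusted p 0.0843). Cyp2c67 was at -3.00, -5.31 and -3.45 against 0.98, -2.66 and -0.997 (3.03, SE 0.99, adjusted p 0.114). These near-identical genes gave the same ranking of the knockouts, and a probe of 1 may bind RNA of another. Cyp2c29 differed by 3.59 with 4 usable arrays (adjusted p 0.0751) and Cyp2c40 by 3.31 (adjusted p 0.132). Cyp2c53-ps, a transcribed pseudogene, passed the background flag in 1 control and every knockout, at -7.72, -8.19 and -5.55 against -1.30, -5.49 and -2.77, and differed by 3.97 (SE 1.15, adjusted p 0.0910), a size that rests on 2 controls not well above background.

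The row also held members with little difference. Cyp2c38 was higher by 0.37 (SE 0.21) although it lies between Cyp2c29 and Cyp2c67, Cyp2c37 by 0.06 (SE 0.36), and Cyp2c70 at the end of the row was at -0.05 (SE 0.19). Cyp2c39, Cyp2c50 and Cyp2c54, in the same row, were well above background on no array. Cyp2c23, an arachidonic acid epoxygenase that lies outside the row, stood at -5.13, -5.23 and -4.71 in controls and -2.09, -4.01 and -2.88 in knockouts. Its groups did not overlap, and the difference was 2.03 (SE 0.47, adjusted p 0.0613). Leaving out 1 array at a time moved the Cyp2c median between 1.49 and 3.59.

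**Figure D4:**
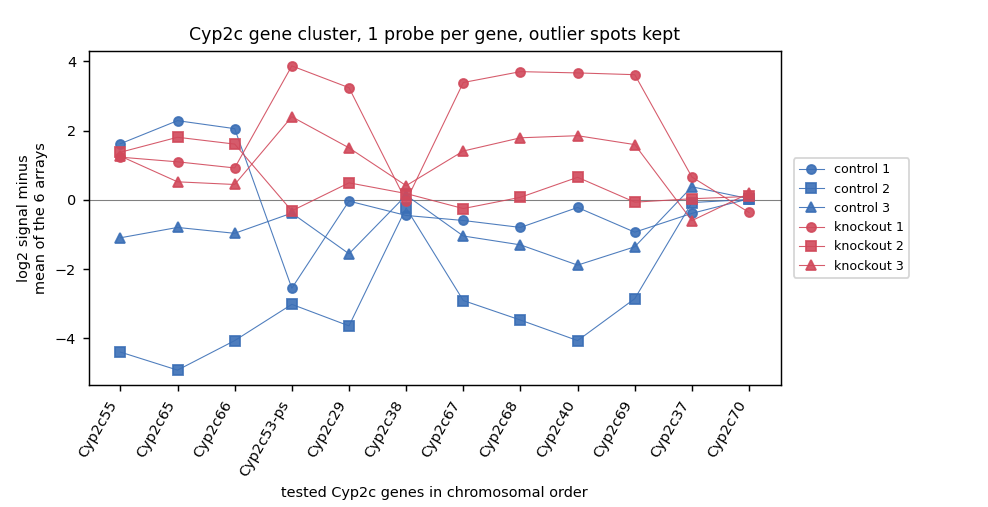
Log2 signal minus the mean of the 6 arrays (y axis, outlier spots kept) for the 12 tested genes of the Cyp2c row in chromosomal order (x axis); each line is an array, blue for controls and red for knockouts. Control replicate 1 is the highest array at Cyp2c55, Cyp2c65 and Cyp2c66, knockout replicate 1 is the highest at Cyp2c53-ps, Cyp2c29, Cyp2c67, Cyp2c68, Cyp2c40 and Cyp2c69, and the lines meet at Cyp2c38, Cyp2c37 and Cyp2c70.

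Cyp2f2, which oxidises naphthalene and is best known from airway club cells, was detected on all arrays of the knockouts only. It stood at -4.12, -7.71 and -4.85 in controls, of which 2 were well above background and replicate 2 was not, and at 1.37, -3.39 and -1.40 in knockouts. Knockout replicate 1 lay nearly 5 log2 units above replicate 2, and the lowest knockout lay above the highest control. The difference, partly set by that background-level control, was 4.42 (SE 1.37, adjusted p 0.103), and it ranged from 3.17 to 5.55 with an array left out. Cyp2e1, the ethanol-oxidising enzyme, differed by 1.20 (SE 0.91) over 4 usable arrays but by 0.03 with its outlier spots kept, including a value of 1.44 in control replicate 1. The Cyp2j enzymes, epoxygenases of arachidonic acid, had a median of 0.61 over 4 tested genes, with Cyp2j6 at 1.20 (SE 0.55, adjusted p 0.227). Cyp2j13 differed by 0.84 at its brightest probe (SE 0.33, adjusted p 0.166). A dimmer Cyp2j13 probe, well above background on no control array, entered the test through the knockouts only. Its call (limma adjusted p 0.0390) used control values at background. Bounded by the background level, its signal was at least 1.65-fold higher in knockouts, and the adjusted p does not refer to that bound. Cyp2j11 and Cyp2j5 differed by 0.24 and 0.39. Cyp2s1, an epithelial CYP, was higher by 1.596 (SE 0.70, adjusted p 0.201) and Cyp2t4 by 1.11 (SE 0.50). Values near 0 were found for the vitamin D hydroxylase Cyp2r1 (0.10, SE 0.15), for Cyp2u1 (-0.04, SE 0.19) and for all 4 Cyp2a and Cyp2b members (Cyp2b19 -0.18, Cyp2a4 -0.06, Cyp2b13 0.01, Cyp2b23 0.19).

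Of the Cyp3a genes, whose products metabolise many drugs, 2 were members. Cyp3a11 stood at -5.57, -4.91 and -4.55 in controls and -4.34, -3.73 and -3.31 in knockouts, near the dim end of the scale. The groups did not overlap, and the difference was 1.22 (SE 0.35, adjusted p 0.0911). Cyp3a13 could not be tested because all 3 knockout spots and 1 control spot were outliers; with these kept it was at 1.14, -3.31 and -0.85 against 2.30, 1.63 and 1.97.

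The Cyp4 family hydroxylates fatty acids and eicosanoids, and Cyp4f enzymes inactivate leukotriene B4. Cyp4f40 rose: it stood at -4.11, -5.64 and -3.34 in controls and at -1.45, -1.58 and -1.41 in knockouts. The 3 knockouts were nearly equal, and all lay above the controls, which were spread over more than 2 log2 units. The difference was 2.88 (SE 0.54, limma adjusted p 0.0441), a 7.38-fold higher signal. The call was lost in each of the 6 fits with an array left out (adjusted p 0.0531 to 0.106), in which the difference ranged from 2.25 to 3.40. Its neighbours on chromosome 17 differed less: Cyp4f13 by 0.87, Cyp4f17 by 0.84 and Cyp4f16 by 0.72 (adjusted p 0.144, 0.0910 and 0.104). Cyp4f14 was untested because of outlier spots; with them kept it was at 1.54, -2.59 and -0.63 against 2.04, 1.05 and 1.04. Cyp4f18, an enzyme of neutrophils and other myeloid cells, was at 0.93, 1.39 and 1.34 against 0.82, 1.37 and 0.72 (-0.25, SE 0.23, adjusted p 0.526), and a dimmer probe differed by -0.88 (adjusted p 0.210). Cyp4b1 and Cyp4a29 were higher by 0.76 and 0.65, Cyp4a10 by 0.01, and Cyp4v3, a fatty acid hydroxylase, was at -0.52 (SE 0.25); none of these 4 was called.

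Among the sulfotransferases, which use activated sulfate, 5 of 6 Sult1 genes were higher, 4 with an unadjusted p under 0.05 at the brightest probe, and the median was 1.65. Sult1c2 stood at -2.21, -5.54 and -3.53 in controls and at 1.18, -1.03 and 0.44 in knockouts. The groups were separated by more than 1 log2 unit, and the difference was 3.95 (SE 0.91, adjusted p 0.0613). Sult1d1, which sulfates catecholamines, was at -0.77, -5.05 and -2.55 against 1.28, -0.25 and 0.18 (3.20, SE 1.03, adjusted p 0.112). Sult1b1, a gut enzyme that sulfates thyroid hormone and phenols, was at 1.94, -0.95 and 1.08 against 3.08 and 2.63, with knockout replicate 2 an outlier spot at 2.42 (2.16, SE 0.83, adjusted p 0.171). Sult1c1 was higher by 0.94 (SE 0.23, adjusted p 0.0678). Sult1a1, the phenol sulfotransferase, differed by 1.13 at its brightest probe (SE 0.48, adjusted p 0.2003). A dimmer Sult1a1 probe, with 4 usable arrays at -0.51 and -0.69 against 0.93 and 0.87, was called (1.503, SE 0.20, limma adjusted p 0.0416). Its outlier spots stood at 0.84 in control replicate 1, close to knockout replicates 2 and 3, and at 2.46 in knockout replicate 1. With these kept the difference was 1.54, so the small SE rests on the 4 usable arrays. The estrogen sulfotransferase Sult1e1, detected on all arrays of the controls only, was at -4.08, -5.75 and -5.47 against -6.26, -4.99 and -6.45 (-0.80, SE 0.55, adjusted p 0.391).

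The UGT genes with a detectable probe were few. Ugt2b34 stood at 1.83, -2.27 and 0.28 in controls and at 3.02, 2.06 and 2.37 in knockouts, with a difference of 2.54 (SE 0.96, adjusted p 0.152). The low control replicate 2 set much of that size: without it the difference was 1.43. Ugt2a1 was higher by 0.47 (SE 0.19, adjusted p 0.181), and the other 7 Ugt2 genes with a probe were not members. Ugt1a10 was at -3.48, -5.05 and -4.71 against -1.47, -2.63 and -2.95 (2.06, SE 0.53, adjusted p 0.0724). Ugt1a6b and Ugt1a6a, which conjugate planar phenols, were higher by 0.98 (SE 0.33) and 0.75 (SE 0.56), with adjusted p of 0.118 and 0.427. Without knockout replicate 1 the Ugt1a6a difference was 0.095. Ugt1 transcripts share their last exons, so these probes may not separate them.

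The glutathione S-transferases split by class. The Gstm genes, a cluster on chromosome 3, were close to equal in both genotypes. Gstm1 stood at 2.25, 2.01 and 1.75 in controls, against 2.01, 1.72 and 2.22 for the knockout animals. Both ranges overlapped, with a difference of -0.02 (SE 0.21, adjusted p 0.960). Gstm2, Gstm3, Gstm4, Gstm5 and Gstm7 were between -0.13 and 0.32. Gstm6 departed from them at its tested probe, at -3.36, -3.85 and -3.70 against -1.25, -3.09 and -2.07 (1.4998, SE 0.45, adjusted p 0.0963). A brighter Gstm6 probe, well above background on every array, was untested because of outlier spots. With these kept it was at 0.46, 0.62 and 0.08 against 0.22, 0.05 and 0.81, a difference of -0.02. On the epithelial scale the Gstm median was -1.503, with 0 of 7 called.

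All 3 tested Gstt genes were higher, with unadjusted p under 0.05: Gstt3 by 1.18 (SE 0.30, adjusted p 0.0739), Gstt2 by 0.75 and Gstt1 by 0.72. Gstt3 was at 0.07, -0.50 and -0.46 against 1.42, 0.38 and 0.84, with no overlap. Gstp3 was higher by 1.05 (SE 0.33, adjusted p 0.107) and Gstp2 by 0.13 (SE 0.18). Gstp1, the main pi-class enzyme, was untested because of outlier spots, at 2.76, 2.61 and 2.49 against 3.29, 2.75 and 2.85 with these kept. Gsta2 was at -0.07, -7.00 and -2.46 against 0.59, -1.55 and 0.17, a difference of 2.91 (SE 1.66, adjusted p 0.307); without control replicate 2 it was 1.001. Gsta3 differed by 0.66 (SE 0.43, adjusted p 0.367). Gsta4, which conjugates the lipid peroxidation product hydroxynonenal, was untested, at 0.72, -1.17 and -0.24 against 2.17, -0.63 and 0.85 with outlier spots kept.

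**Figure D5:**
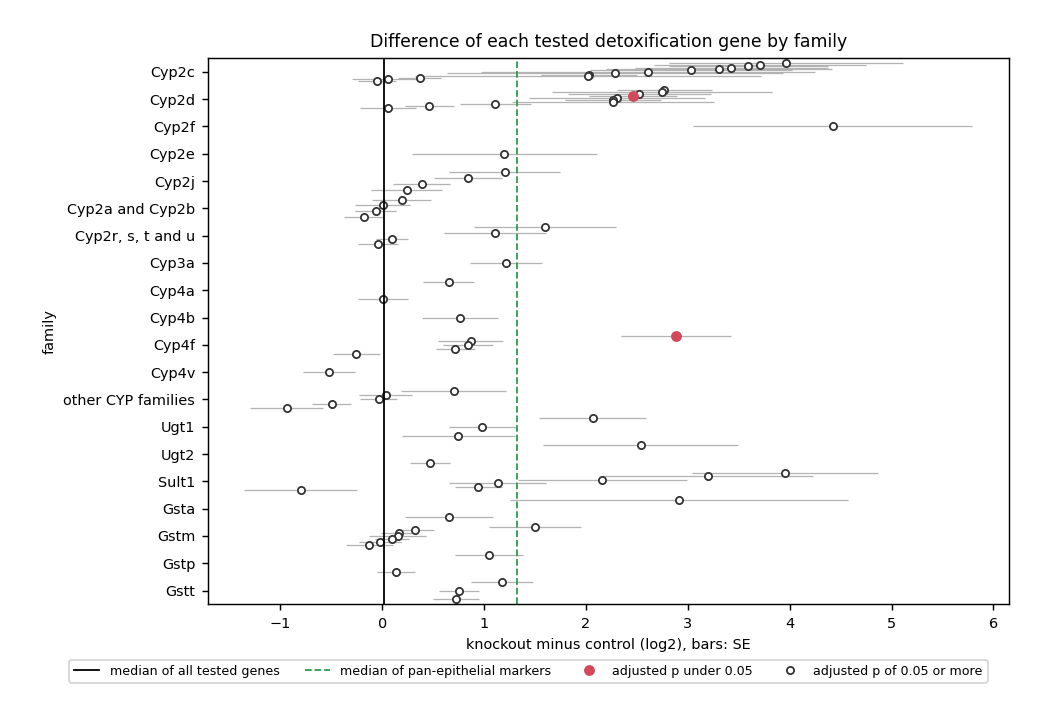
Difference of each tested member (points, with SE bars) by family on the log2 scale; red points have an adjusted p under 0.05, the solid line is the median of all tested genes (0.01) and the dashed line that of the pan-epithelial markers (1.33). Many Cyp2c, Cyp2d and Sult1 genes lie right of the dashed line, and most Gstm, Cyp2a and Cyp2b genes lie near the solid one.

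The letters of the rule also took in 6 genes of other CYP families, and these did not share the direction. Cyp26b1, which degrades retinoic acid, was at -0.18, -1.43 and -0.79 against -2.21, -1.50 and -1.51 (-0.94, SE 0.36, adjusted p 0.156). Cyp21a1, the steroid 21-hydroxylase, was at -3.29, -2.89 and -2.84 against -3.73, -3.42 and -3.36 (-0.50, SE 0.19, adjusted p 0.163). These were the 2 members with an unadjusted p under 0.05 in the lower direction, and both had no overlap. The sterol 27-hydroxylase Cyp27a1 was higher by 0.70 (SE 0.52), Cyp39a1 and Cyp46a1 were at -0.03 and 0.03, and Cyp20a1 was untested, at -0.55, -0.57 and -0.51 against -1.22, -0.59 and -0.91 with outlier spots kept. Without these 6 genes the median of the members was 0.96 over 72 genes. On the epithelial scale 5 of 77 tested members were called lower in limma, Cyp26b1 (-2.60, adjusted p 0.0186), Sult1e1 (-2.46), Cyp4v3 (-2.18), Cyp21a1 (-2.15) and Cyp2b19 (-2.34). Like the higher calls on that scale, these do not reflect each gene's own spread. On that scale 8392 of all 35351 tested probes were called, of which 34 were higher. Lower calls were thus common over the whole array and are not particular to these members.

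The untested members Cyp2j8 and Cyp2j9 had outlier spots on 3 and 2 arrays. With these kept, Cyp2j8 was at 0.38, -0.75 and -0.44 against 0.83, 0.52 and 0.57, and Cyp2j9 at -0.14, -0.65 and -0.66 against -0.96, -0.89 and -0.69. Just outside the detection rule, on 2 arrays of a group at most, were Cyp26c1 (-5.30 in controls and -5.09 in knockouts), Cyp2a5 (-5.63 and -5.43) and Gstt4 (-5.17 and -7.18). Members just inside it, detected on all arrays of 1 genotype, included Cyp2b13 (-5.13 in both) and Cyp2j11 (-5.01 and -4.77). Leaving out 1 array moved some other named differences by over 1.5 times. Without control replicate 2 Cyp2j13 was at 0.49, Cyp2j6 at 0.76 and Sult1b1 at 1.34. Without knockout replicate 1 Cyp2s1 was at 1.005 and Gsta3 at 1.03. That fit left too few usable knockout values at the brightest probes of Cyp2e1 and Sult1b1, so dimmer probes stood in. The dimmer Cyp2e1 probe gave 3.69, with usable control values of -8.16 and -8.01 that were not well above background. The dimmer Sult1b1 probe gave 3.62, as it also did with all arrays, so neither value shows a shift from dropping the array. Without control replicate 1 Cyp4a29 was at 0.43, Cyp4b1 at 1.15, Gsta2 at 4.47 and Sult1e1 at -0.29. Gsta3 was also at 0.34 when control replicate 3 was dropped and at 0.39 for knockout replicate 2, and Sult1e1 at -1.26 and -0.53 without knockout replicates 2 and 3. Of the 12 members with a further tested probe, 11 had the same sign at that probe and Gstm1 the other, at 0.06.

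The partner genes of the pathway were followed in a list of 119 genes, of which 103 were tested. Of these 73 were higher and 30 lower, with a median of 0.30, where 51.2% of all tested genes were higher. In limma 1 was called higher and 2 lower, against 1.35% and 2.46% of all tested genes, so neither count stands out from that background. The carboxylesterase Ces2a, which cleaves ester prodrugs in the gut, was at -3.28 and -1.98 in controls and 0.48 and 0.84 in knockouts, with outlier spots in replicate 1 of both groups (3.29, SE 0.48, limma adjusted p 0.0446). The related Ces1g was at -1.43 and -1.24 in controls and -6.49, -5.99 and -5.36 in knockouts (-4.61, SE 0.35, limma adjusted p 0.0156), opposite in sign to Ces2a. Of these knockout arrays 1 was well above background, so the size of the Ces1g difference is uncertain. The carnitine and ergothioneine transporter Slc22a4 was also lower (-1.05, SE 0.21, limma adjusted p 0.0485). Por differed by 0.21 (SE 0.18, adjusted p 0.485), and the UDP-glucuronate maker Ugdh by 0.30 (SE 0.21, adjusted p 0.431). Papss2, which makes the sulfate donor of the SULT enzymes, was at 1.36, -0.07 and 0.54 against 2.49, 1.86 and 1.99 (1.504, SE 0.38, adjusted p 0.0704). Cyp1a1, the classic target of the aryl hydrocarbon receptor, was higher by 2.87 (SE 0.91, adjusted p 0.108), with 1 of 3 controls well above background.

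Among the exporters Abcb1a, or P-glycoprotein, was at -0.41 and 0.55 in controls and 2.04 and 2.35 in knockouts over 4 usable arrays (2.12, SE 0.38, adjusted p 0.0577). Its outlier spots stood at 1.99 in control replicate 1 and 2.74 in knockout replicate 1, and with these kept the difference was 1.66. Abcg2 differed by 0.49 (SE 0.26, adjusted p 0.272). Of 23 tested transcription regulators 18 were higher, with a median of 0.94 and 0 called. Nr1i2 stood at -0.18, -3.13 and -1.04 against 1.28, 0.76 and 0.75 (2.38, SE 0.71, adjusted p 0.0953). Nr1i3 was at -4.44, -5.35 and -4.79 against -2.12, -3.64 and -3.25 (1.86, SE 0.43, adjusted p 0.0613). Hnf4a differed by 2.36 over 4 usable arrays (SE 0.70, adjusted p 0.1201), while Nfe2l2 differed by 0.44 (SE 0.30, adjusted p 0.386) with overlapping groups.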

How the data were processed

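Per the labels' protocols, colon RNA was extracted with TRIzol, amplified and labelled. The labels name Cy3 and a green column, but the deposited scanner files hold the red channel alone, which was used; they came from Feature Extraction 11.5.1.1 per the file headers and 10.7 per the submitters' processing notes. The deposited processed signal is a linear intensity, background-subtracted per the file headers and unscaled between arrays. The deposited value table holds the same intensity values and served as an alternative. Here log2 was taken, each array's 75th percentile subtracted and outlier spots set missing. Probes well above background on all 3 arrays of a group, with at least 2 usable values per group, entered a two-sided limma 3.58.1 fit (lmFit, eBayes; R 4.3.3) of 35351 probes, Benjamini-Hochberg adjusted at 0.05. The same fit was also run on simulated data, with an outcome that is not given here. The array number limits the precision: an exact permutation test of 3 against 3 cannot go below p = 0.1. The brightest tested probe stood for a gene. Names came from RefSeq accessions in GRCm38.p6 (33767 of 56605 probes); the files use mm9, so no probe coordinates are given. Members, lists and alternatives were chosen with earlier results of these data known. Genes named were all called members, the brightest, highest and lowest member of each family, those untested or just outside the rule, and set partners; members beyond these were chosen with their values in view. Alternatives were outlier spots kept, median or pan-epithelial centring, normexp with quantile normalization, other filters, array weights, an intensity trend with robust prior, other probe choices, the value table, leaving out each array, and leaving out other CYP families.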

Additional observations from a re-analysis of the deposited data

How the results depend on the processing

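No paired analysis was possible because the labels carry no replicate numbers, and the numbers used here only name the animals. The count of members called higher (2) became 5 with median centring, 4 with pan-epithelial centring, 7 with normexp and quantile normalization, 0 without the filter on dim probes, 41 with array weights, 4 with an intensity trend and robust prior and 4 with the dimmest probe of a gene. Dropping single arrays gave 0 to 10 calls, namely 10 when control replicate 1 was dropped, 5 for knockout replicate 2 and 0 for each of the other 4. The count called lower (0) became 5 with pan-epithelial centring and 1 with array weights, and was 0 in the 6 fits with an array left out. The median over members (0.84) became -0.82 with pan-epithelial centring, where the median of all genes was -1.67; it was 0.72 to 1.00 with an array left out. Members higher by 1 or more (35) became 13 with pan-epithelial centring (16.9% against 0.90% of all genes) and were 27 to 38 with an array left out. This count and its alternatives were added after seeing the data. All probes called (1403) became 2249 with median centring, 8392 with pan-epithelial centring (34 of them higher), 2768 with normexp and quantile normalization, 484 without the filter, 9292 with array weights and 2274 with the value table, and were 40 to 2114 with an array left out. Cyp2d10 and Cyp4f40 lost their calls without the filter on dim probes (adjusted p 0.0627 and 0.0688). The cause of these shifts was not tested. The 7 members with outlier spots on several arrays, mostly bright probes, had no test.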
